A study of Homo sapiens with 3 samples.

Results

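The mRNAs of 9 genes that make microRNAs and carry out their silencing were followed in HEK293 cells. The 9 were taken by name from the gene count table: DROSHA and DGCR8 for nuclear processing, XPO5 for export, DICER1, TARBP2 and PRKRA for dicing, and TNRC6A, TNRC6B and TNRC6C as silencing effectors. All 9 were found, among 17595 endogenous genes and 80 spiked control RNAs with at least 1 count. The series holds 3 libraries of 1 group, the established embryonic kidney line HEK293 grown in serum-supplemented medium with no treatment named. For each, 1000 cells were lysed with spiked RNA, reverse transcribed from the poly(A) tail with a template switch at the 5′ end, and material of 100 cells went into PCR of 18 cycles, so that fragments from RNA 5′ ends were sequenced. Libraries are called 20, 21 and 23 after the index in their column heading, because the labels do not link columns with sample numbers. Nothing in the labels says that they came from separate cultures, so p-values that rest on their spread cover only what varied among these 3 samples, possibly technical variation. With 1 group, genes were compared with each other inside each library, and the libraries were compared pairwise. A ratio between genes is a ratio of counts. Its p-value covers the spread over libraries and not capture that differs between genes, which was not measured.

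MicroRNAs are cut in steps. In the nucleus the Microprocessor, made of the RNase III enzyme DROSHA and its RNA-binding partner DGCR8, releases a hairpin from the primary transcript, and exportin-5, the product of XPO5, carries it to the cytoplasm with RAN. There the RNase III enzyme DICER1, bound to a double-stranded RNA binding partner, TRBP from TARBP2 or PACT from PRKRA, cuts off the loop, and an Argonaute protein takes up 1 strand. The TNRC6 proteins, also called GW182 proteins, bind Argonaute and recruit deadenylases to the target mRNA.

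Endogenous counts were 1330877 to 1545594 per library. Levels are given as counts per 1000000 endogenous counts (CPM), in which 1 count equals 0.647 to 0.751 CPM. All 7 markers fixed for HEK293 lay between 33.9 and 340.1 CPM in the mean, while the blood, endothelial, hepatocyte and fibroblast markers reached at most 3.92 CPM, with 9 of 12 at 0 (PTPRC, CD3E, HBB, PECAM1, CDH5, ALB, TTR, COL1A2 and DCN).

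Of the 9 genes, 8 lay between percentiles 67.8 and 90.1 of all listed genes by mean level, and TNRC6C lay at percentile 42.2. Together the 9 genes took 0.0377% ± 0.0012 of endogenous counts (SD, n = 3). Their median was 41.9 CPM, against 7.16 CPM over all listed genes, and 8 of 9 averaged at least 10 CPM, against 44.6% of all listed genes. All 9 had counts in each library. PRKRA stood first at 99.6 ± 9.57 CPM and TNRC6C last at 4.07 ± 3.55 CPM (SD, n = 3). By the spiked RNAs, taken as 20000 molecules per cell, this is about 52.0 ± 2.70 molecules of PRKRA mRNA and 2.17 ± 1.99 of TNRC6C mRNA per cell. These estimates assume that both kinds of RNA are captured equally.

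**Figure D1:**
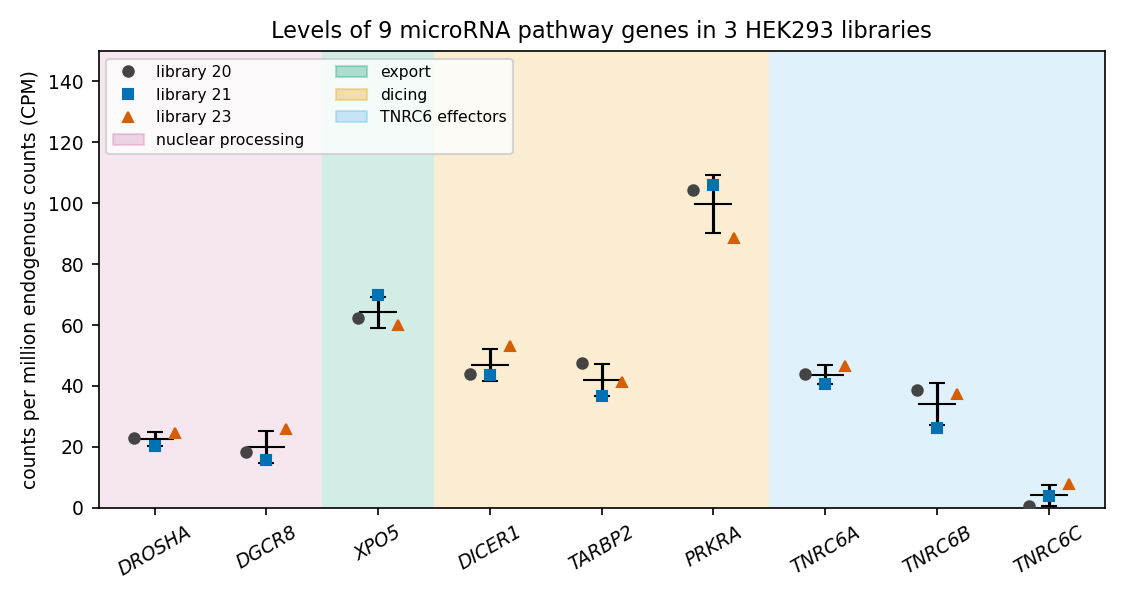
Level of each gene in CPM (vertical axis) in libraries 20, 21 and 23 (points), with the mean and SD over the 3 libraries (black bars). The background colour gives the step of the pathway. PRKRA lies above all others in each library, DROSHA and DGCR8 overlap, and TNRC6C lies lowest in each library.

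The genes of the Microprocessor were not told apart in level and lay below those of the later steps, apart from TNRC6C. DROSHA, the nuclease, had 34, 27 and 38 counts in libraries 20, 21 and 23, which is 22.6 ± 2.18 CPM (SD, n = 3). DGCR8, its RNA-binding partner, had 27, 21 and 40 counts, or 20.0 ± 5.26 CPM. The ranges overlap, and DGCR8 was the lower in libraries 20 and 21 and the higher in library 23. The log2 ratio of DGCR8 to DROSHA was -0.20 ± 0.24 (limma adjusted p = 0.47, 10 role pairs examined). Over the pooled counts DROSHA stood at 1.12 times DGCR8, with an exact 95% interval of 0.836 to 1.52. With DROSHA as reference 7 of the 8 other members were called different, beside 86.9% of all genes tested. With DGCR8 as reference it was likewise 7 of 8, beside 78.9% of all genes. Without library 20, DGCR8 was no longer called against TARBP2, TNRC6A or TNRC6B (limma adjusted p = 0.11, 0.066 and 0.27). A share near that of all genes is no property of the members, and the calls serve here to order them.

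The Microprocessor is known to cut hairpins in the DGCR8 mRNA itself, and a hairpin is annotated inside DICER1 as well. The mature microRNAs of these hairpins are shown because they lie inside genes of the machinery that makes them. They are from RefSeq on GRCh38.p14, written 5′ to 3′ with the seed, bases 2 to 8, in capitals.
hsa-miR-3618, inside DGCR8, chr22:20085797-20085818, plus strand: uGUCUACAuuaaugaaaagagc
hsa-miR-1306-5p, inside DGCR8, chr22:20086072-20086093, plus strand: cCACCUCCccugcaaacgucca
hsa-miR-1306-3p, inside DGCR8, chr22:20086112-20086129, plus strand: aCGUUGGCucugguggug
hsa-miR-3173-5p, inside DICER1, chr14:95137961-95137982, minus strand: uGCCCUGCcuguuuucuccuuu
hsa-miR-3173-3p, inside DICER1, chr14:95137923-95137944, minus strand: aAAGGAGGaaauaggcaggcca
No 2 of the 5 share a seed. Among 2370 mature names, the seeds of hsa-miR-3618 and of both arms of hsa-miR-1306 are in no other, that of hsa-miR-3173-5p is in 1 other and that of hsa-miR-3173-3p in 2 others. The hairpin genes MIR3618, MIR1306 and MIR3173 are not among the rows of the table, so the counts of DGCR8 and DICER1 were not split with rows of their own hairpins. The mature microRNAs carry no poly(A) tail and were not measured.

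The export receptor gene XPO5 had the second highest level of the 9, with nearly the same count in each library. It had 92, 93 and 93 counts, or 62.3, 69.9 and 60.2 CPM, with a mean of 64.1 ± 5.10 CPM (SD, n = 3). Its log2 ratio to DROSHA was 1.49 ± 0.25, positive in each library (adjusted p = 6.7e-17, limma). Their ranges do not overlap. XPO5 also exceeded DICER1, the next step, by 0.45 ± 0.25 in log2 (adjusted p = 0.0012 with limma, with the same sign in all 3 libraries). This call was lost without library 20 (limma adjusted p = 0.15) or library 21 (0.096). Over the pooled counts XPO5 stood at 1.36 times DICER1, with an exact interval of 1.13 to 1.63. All 8 other members were called different from XPO5, 7 of them lower, beside 93.8% of all genes called. Without library 20 the calls against TNRC6A and TNRC6B were lost as well (limma adjusted p = 0.071 and 0.055). In RefSeq the XPO5 gene overlaps POLR1C, which encodes a subunit of RNA polymerases I and III and had 149 ± 26.6 CPM. Whether counting used the strand is not stated in the labels, so what overlap adds to the count of XPO5 cannot be told apart.

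Among the dicing genes a double-stranded RNA binding partner, not the nuclease, had the highest count. DICER1 had 65, 58 and 82 counts, or 44.0, 43.6 and 53.1 CPM (mean 46.9 ± 5.34, SD, n = 3). TARBP2, which encodes TRBP, had 70, 49 and 64 counts, or 47.4, 36.8 and 41.4 CPM (mean 41.9 ± 5.32). TARBP2 was above DICER1 in library 20 and below it in libraries 21 and 23, and their ranges overlap. PRKRA, which encodes PACT, an activator of the kinase PKR as well as a Dicer partner, had 154, 141 and 137 counts, or 104, 106 and 88.6 CPM. The lowest library of PRKRA lies above the highest of all other members.

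In all 3 libraries PRKRA exceeded DICER1 (log2 ratio 1.08 ± 0.30, adjusted p = 5.5e-13 with limma). TARBP2 fell below PRKRA in all 3 as well (log2 ratio -1.25 ± 0.23, adjusted p = 8.0e-16 with limma). Over the pooled counts PRKRA stood at 2.11 times DICER1, with an exact interval of 1.78 to 2.50, and at 2.36 times TARBP2, with 1.98 to 2.82. TARBP2 and DICER1 were not told apart (log2 ratio -0.16 ± 0.24, limma adjusted p = 0.34), and the pooled ratio of TARBP2 to DICER1 was 0.893 with an exact interval of 0.727 to 1.09. DICER1 exceeded DROSHA, the other RNase III gene of the pathway, in all 3 libraries (log2 ratio 1.04 ± 0.098, adjusted p = 2.6e-10 with limma). With PRKRA as reference all 8 others were called lower, beside 95.6% of all genes called in either direction. With DICER1 as reference 6 of 8 were called, beside 91.5% of all genes, and with TARBP2 5 of 8, beside 89.6%. The antisense gene DICER1-AS1 overlaps DICER1 and had 3, 7 and 6 counts, few beside those of DICER1, and MAP3K12, which overlaps TARBP2, had 0, 1 and 4 counts. The long non-coding RNA gene CHROMR overlaps PRKRA in RefSeq and is not among the rows. What that overlap adds to the count of PRKRA cannot be told apart.

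The TNRC6 paralogs comprised a pair that was not told apart by the test and TNRC6C far below. TNRC6A had 65, 54 and 72 counts, or 44.0, 40.6 and 46.6 CPM (mean 43.7 ± 3.02, SD, n = 3). TNRC6B had 57, 35 and 58 counts, or 38.6, 26.3 and 37.5 CPM (mean 34.1 ± 6.82). TNRC6A was the higher in each library and the CPM ranges do not overlap, but the ratio did not pass the test (log2 0.37 ± 0.22, limma adjusted p = 0.13). The pooled ratio was 1.27 with an exact interval of 1.02 to 1.59.

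TNRC6C had 1 count in library 20, 5 in library 21 and 12 in library 23. Both paralogs exceeded it in all 3 libraries, TNRC6A by 3.76 ± 1.51 and TNRC6B by 3.39 ± 1.63 in log2 (adjusted p = 0.0041 and 0.0097 with limma). Without library 21 both calls were lost (adjusted p = 0.49 and 0.51), and without library 23 TNRC6C fell under the minimum of 10 pooled counts and was not tested. The pooled ratio of TNRC6A to TNRC6C was 10.6, with an exact interval of 6.54 to 18.3, and that of TNRC6B to TNRC6C 8.33, with 5.10 to 14.4. With TNRC6A as reference 6 of 8 members were called, beside 92.3% of all genes, and with TNRC6B 5 of 8, beside 83.5%. With TNRC6C as reference 8 of 8 were called, all higher, beside 50.9%. None of these 8 pairs stayed called without library 21. The pairs of TNRC6C with DROSHA and DGCR8 were also lost with edgeR's quasi-likelihood test. TNRC6C overlaps TMC6 in RefSeq, which had 7, 4 and 8 counts, so overlap and strand could move a count as low as that of TNRC6C by a large part; this was not tested.

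In the order of mean levels, PRKRA was followed by XPO5, DICER1, TNRC6A, TARBP2, TNRC6B, DROSHA, DGCR8 and TNRC6C. Of the 36 pairs 29 were called in both fits and 7 were not. DICER1, TNRC6A, TARBP2 and TNRC6B formed a run between 34.1 and 46.9 CPM in which none of the pairs was called by limma at an adjusted p of 0.05. DICER1 against TNRC6B came nearest, with DICER1 higher in all 3 libraries (log2 0.47 ± 0.27, limma adjusted p = 0.053). That pair passed with edgeR's quasi-likelihood test (adjusted p = 0.046) and with limma without the filter on low counts (adjusted p = 0.042), and its pooled ratio was 1.37 with an exact interval of 1.10 to 1.70. The other uncalled pair was DROSHA and DGCR8. Of the steps in the order that were called, TNRC6B over DROSHA (log2 0.57, limma adjusted p = 0.020) was lost without library 20 (adjusted p = 0.15) or library 23 (adjusted p = 0.21) and in limma without a trend (adjusted p = 0.050). DGCR8 over TNRC6C (log2 2.62, limma adjusted p = 0.045) was lost without library 21 (adjusted p = 0.56) and with edgeR's quasi-likelihood test (adjusted p = 0.082). PRKRA over XPO5 (log2 0.63 ± 0.096, limma adjusted p = 5.6e-06) held without each library, with adjusted p between 1.7e-06 and 0.020.

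**Figure D2:**
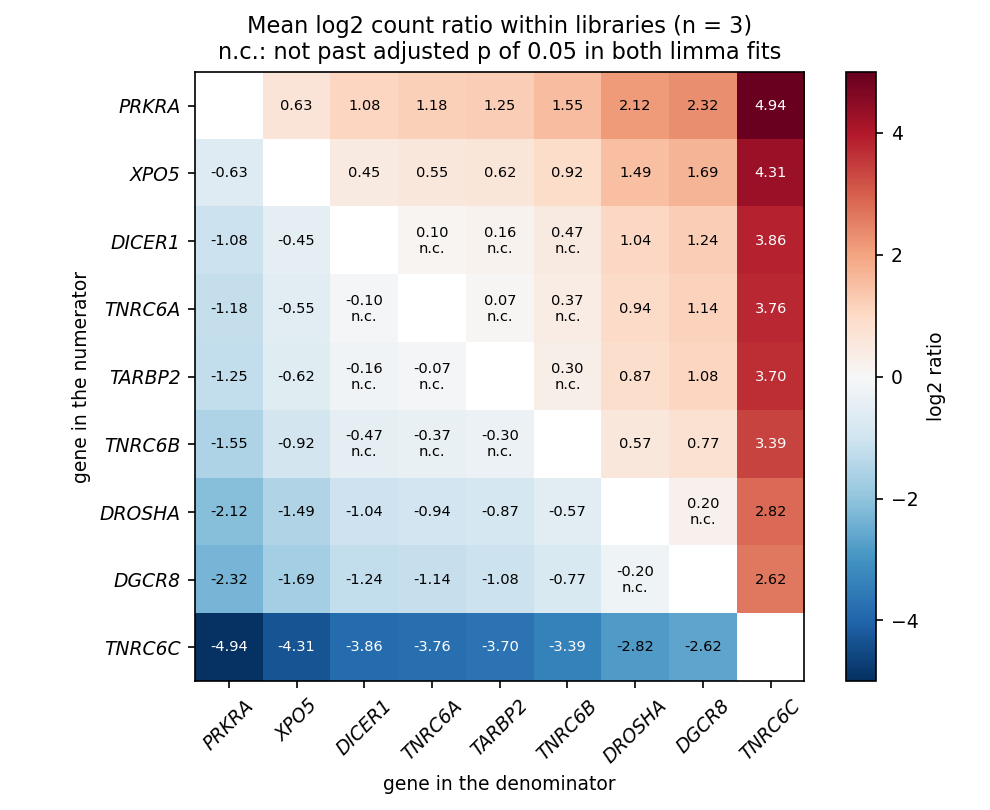
Mean log2 ratio of the counts of 2 genes in the same library, row gene over column gene, over 3 libraries, with genes in order of mean level and colour giving the log2 ratio. Cells with n.c. did not pass an adjusted p of 0.05 in both limma fits: the 6 pairs among DICER1, TNRC6A, TARBP2 and TNRC6B, and the pair of DROSHA and DGCR8.

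Summed by step, dicing took the largest part. Most of its lead came from PRKRA, with a mean of 99.6 CPM, beside 46.9 CPM for DICER1 and 41.9 CPM for TARBP2. The 3 dicing genes summed to 196, 186 and 183 CPM in libraries 20, 21 and 23 (mean 188 ± 6.61, SD, n = 3), which is 49.99% ± 2.18 of the counts of the 9 genes. The 3 TNRC6 genes summed to 82.0 ± 10.7 CPM, or 21.7% ± 2.18, and XPO5 alone took 17.0% ± 1.94. The Microprocessor genes summed to 42.6 ± 7.29 CPM, or 11.3% ± 1.63. Per gene, the means were 62.8 CPM for dicing, 64.1 CPM for export, 27.3 CPM for the TNRC6 effectors and 21.3 CPM for nuclear processing. The sums of the 4 steps do not overlap between dicing and the others in any library, and no test was run on sums over chosen genes.

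No difference in a member was detected between the libraries. None of the 9 was called between any 2 libraries (exact binomial test per gene and pair, Benjamini-Hochberg over all genes and 3 pairs), beside 0.56% of 11424 genes called. At an unadjusted p under 0.05 it was 1 of 9, TNRC6C between libraries 20 and 23 (p = 0.0035, adjusted p = 0.33, exact test), beside 1813 of the 11424 genes. The lowest adjusted p of the other members was 0.77, for DGCR8 between libraries 21 and 23. The test and the counting variation given next take each count as an independent molecule, which PCR reads are not. With 88 pooled counts for DGCR8 and 18 for TNRC6C, only large differences could be seen at this depth. The coefficient of variation over libraries was 6.90% for TNRC6A, 7.95% for XPO5 and 26.3% for DGCR8, where independent counting gives 12.5%, 10.4% and 18.5%. For TNRC6C it was 87.4%, against 40.8% from independent counting.

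The Argonaute genes, whose proteins hold the microRNA and bind TNRC6, were lower than most members. AGO1 led at 17.3 ± 4.10 CPM, followed by AGO3 at 14.2 ± 1.22 CPM, AGO2, the Argonaute with slicing activity, at 6.08 ± 2.19 CPM and AGO4 at 2.58 ± 1.02 CPM (SD, n = 3). Of the 4, 2 averaged at least 10 CPM, the list median was 10.1 CPM, and the summed level was 40.1 ± 5.32 CPM, against 82.0 ± 10.7 CPM for the 3 TNRC6 genes. No test was run on these sums. The counts of AGO2, 9, 11 and 6, lie below those of DROSHA, DGCR8 and TNRC6B in each library.

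The genes of the Microprocessor's accessory factors had far higher counts than those of its core. All 9 of that list averaged at least 10 CPM with a median of 156 CPM, and 6 lay above PRKRA. They include the RNA helicases DDX5 at 631 ± 36.1 CPM and DDX17 at 205 ± 26.9 CPM and the splicing proteins HNRNPA1 at 1492 ± 59.6 CPM and SRSF3 at 1073 ± 47.4 CPM, which have other roles in RNA metabolism. NCBP2, a subunit of the cap-binding complex, had 156 ± 13.9 CPM, and KHSRP, which binds loops of some precursors, had 131 ± 28.4 CPM. RAN, the GTPase that loads exportins, had 1752 ± 38.2 CPM.

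XPO5 lay below 4 of the 6 other exportin genes and below their median of 82.4 CPM. CSE1L, which returns importin alpha to the cytoplasm, had 373 ± 15.8 CPM, XPO1, the receptor of leucine-rich export signals, had 142 ± 2.71 CPM and XPOT, the tRNA exporter, had 100.1 ± 14.8 CPM. XPO6 had 64.7 ± 5.97 CPM, close to the 64.1 ± 5.10 CPM of XPO5, while XPO7 and XPO4 had 27.8 ± 3.58 and 19.8 ± 4.23 CPM.

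Of the 8 genes that control or degrade precursors, 7 were listed and 4 averaged at least 10 CPM. LIN28B, whose protein blocks the maturation of let-7, had 37.9 ± 1.17 CPM, and its paralog LIN28A is not among the rows. Of the uridylyltransferases, TUT4, listed under its older name ZCCHC11, had 23.3 ± 1.56 CPM and TUT7, listed as ZCCHC6, had 5.09 ± 2.65 CPM. DIS3L2, the nuclease that degrades uridylated precursors, had 6.41 ± 0.61 CPM. TSN and TSNAX, subunits of the translin complex, had 149 ± 3.85 and 42.1 ± 5.79 CPM, and ZC3H12A, a ribonuclease, had 3 counts in all.

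The partners in Argonaute loading and silencing spanned a wide range. Among 14, 13 averaged at least 10 CPM, with a median of 73.6 CPM. The chaperone genes HSPA8 and HSP90AA1 led at 2131 ± 71.9 and 1564 ± 17.7 CPM, HSP90AB1 had 1188 ± 35.9 CPM, and the HSP90 cochaperone genes PTGES3 and AHSA1 had 843 ± 18.8 and 191 ± 9.05 CPM. SND1, which encodes Tudor-SN, had 93.4 ± 8.11 CPM. TRIM71 was the only one of the 14 below 10 CPM, with 4, 6 and 0 counts, and was picked out after its values were seen.

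Downstream of TNRC6, 25 of 26 genes of deadenylation and decay averaged at least 10 CPM, with a median of 36.2 CPM, close to the levels of TNRC6A and TNRC6B. PABPC1, the poly(A) binding protein, led at 616 ± 12.5 CPM, followed by PABPC4 at 144 ± 21.9 CPM and the cap-binding EIF4E2 at 115 ± 19.2 CPM. In the CCR4-NOT complex, the scaffold gene CNOT1 had 113 ± 3.27 CPM, the deadenylase gene CNOT7 106 ± 3.47 CPM and CNOT2 97.7 ± 11.5 CPM. EDC4, a decapping scaffold, was the only one of the 26 below 10 CPM, at 9.18 ± 0.47 CPM, and was picked out after its value was seen.

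Among the other double-stranded RNA binding proteins, the relatives of TARBP2 and PRKRA in binding mode, 6 of 7 averaged at least 10 CPM, with a median of 41.5 CPM. DHX9, an RNA helicase, had 173 ± 9.88 CPM, above PRKRA. STAU1 had 87.1 ± 9.89 CPM, STRBP 41.5 ± 4.05 CPM, EIF2AK2, the kinase PKR that PACT activates, 39.7 ± 3.72 CPM, STAU2 26.7 ± 1.31 CPM and ADARB1 9.96 ± 3.46 CPM. None of the tested genes in the 10 pathway lists was called between libraries, beside 0.56% of all genes tested. List genes with fewer than 10 pooled counts, among them ZC3H12A and most microRNA gene rows, were not tested.

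Rows named as microRNA genes held few counts. The 72 rows named as microRNA genes had a median of 0.341 CPM and none averaged 10 CPM; MIR103A2 led with 12, 7 and 10 counts. Of 12 rows named as microRNA host genes 2 averaged at least 10 CPM, MIR17HG, the host of the miR-17-92 cluster, at 21.3 ± 4.71 CPM and MIR4458HG at 12.6 ± 3.34 CPM. The level of MIR17HG thus lay in the range of DROSHA and DGCR8. Rows of this kind can hold reads of the transcripts around a hairpin, and they say nothing of the mature microRNA. As 5′ ends were counted, a low microRNA gene row does not show that the primary transcript is scarce.

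**Figure D3:**
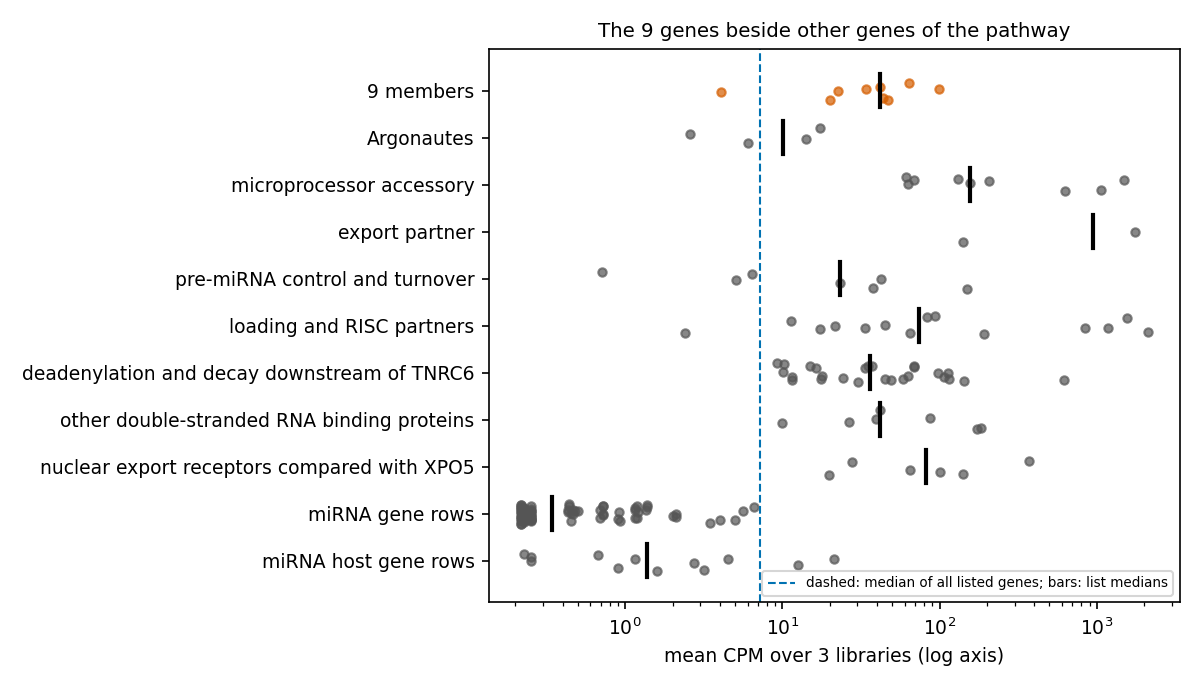
Mean CPM over 3 libraries on a log axis for the 9 genes (top row, orange) and for the listed genes of each pathway list (grey points), with the median of the listed genes of each row as a bar and the median of all listed genes as a dashed line. The accessory factors of the Microprocessor lie mostly above the 9 genes, the Argonautes lie below most of them, and the microRNA gene rows lie lowest.

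Because fragments from 5′ ends were counted, an RNA molecule should count once whatever its length, and counts were not divided by length. Longer genes still had lower counts: the median fell from 38.0 CPM for 2345 genes with proteins of up to 250 residues to 8.93 CPM for 710 genes with over 1500 residues (Spearman -0.23 over 12566 genes of the same 3 libraries, a description). Whether capture or true levels set this slope was not tested. TNRC6A (1962 residues), DICER1 (1922) and TNRC6B (1833) lay at percentiles 91.8, 92.7 and 87.3 of the genes in the longest class, and TNRC6C (1944) at percentile 32.1. XPO5 (1204) and DROSHA (1374) lay at percentiles 93.8 and 76.4 of genes with over 1000 and up to 1500 residues. DGCR8 (773) lay at percentile 66.3 of its class, and TARBP2 (366) and PRKRA (313) at percentiles 71.4 and 86.2 of theirs. Protein length is not mRNA length, which was not measured. Over all genes the medians of the classes of PRKRA and DICER1 were 16.8 and 8.93 CPM, beside 99.6 CPM for PRKRA and 46.9 CPM for DICER1.

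**Figure D4:**
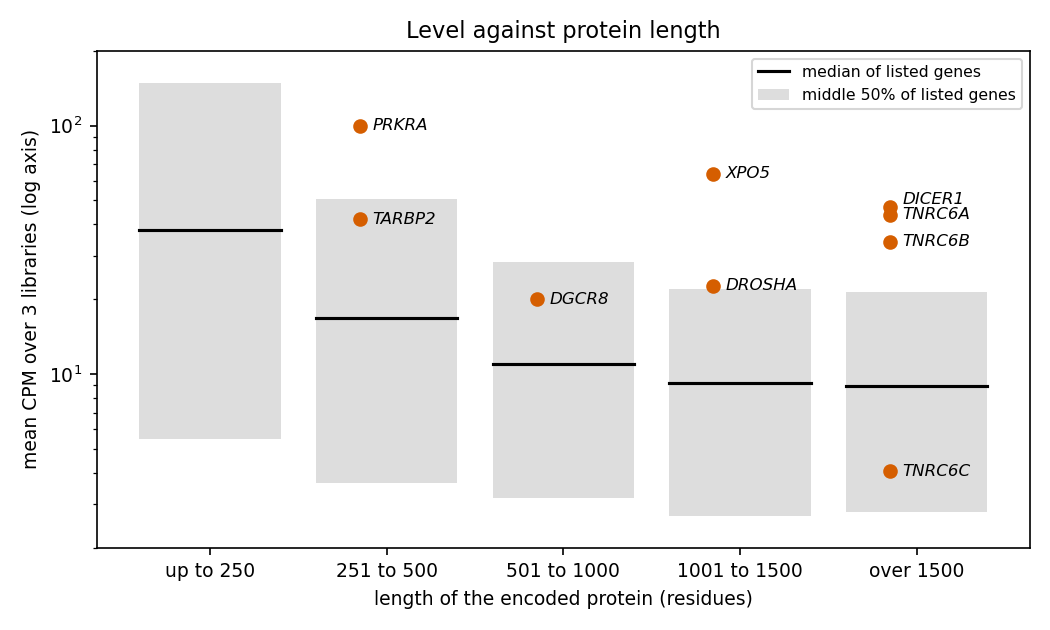
Mean CPM on a log axis against the length of the longest annotated protein in 5 classes, with the median (line) and the middle 50% (grey) of all listed genes with a known length and the 9 genes as orange points. In the longest class TNRC6A, DICER1 and TNRC6B lie above the middle 50% while TNRC6C lies inside it.

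Since fragments from RNA 5′ ends were counted, the bases before the annotated starts of the members were read. RefSeq lists 20 starts for the 9 genes on GRCh38.p14. In the 250 bases before the start, CCAAT or its reverse complement ATTGG was found at 10 of 20 starts (50%), against 32.8% of 14804 starts of coding genes in the table. XPO5 was the only one of the 9 genes without a copy at any of its starts. At least 3 copies were found at 4 starts, of DROSHA, DGCR8, TNRC6B and TARBP2, against 3.72% of the same starts. GGGCGG, on either strand, was at 14 of 20 starts (70.0%, against 62.9%), CCGGAAG at 2 (10.0%, against 13.3%), and TATAAA at none (against 6.01%). At least 3 copies of GGGCGG were at 3 of 20 starts, against 22.9%, so here the members were not above the other starts. The cut of 3 copies was not fixed in advance. Starts of 1 gene can share bases, and these matches are letters, not binding sites. Shown are the 3 genes with 1 start and at least 3 copies, and XPO5, the member without a copy, 5′ to 3′ with CCAAT or ATTGG in capitals.
DROSHA, chr5:31532094-31532343, minus strand: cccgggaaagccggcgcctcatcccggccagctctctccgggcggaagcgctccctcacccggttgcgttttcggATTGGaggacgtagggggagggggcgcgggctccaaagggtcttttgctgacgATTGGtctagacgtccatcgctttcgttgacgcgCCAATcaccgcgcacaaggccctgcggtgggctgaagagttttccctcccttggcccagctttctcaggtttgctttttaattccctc
DGCR8, chr22:20079991-20080240, plus strand: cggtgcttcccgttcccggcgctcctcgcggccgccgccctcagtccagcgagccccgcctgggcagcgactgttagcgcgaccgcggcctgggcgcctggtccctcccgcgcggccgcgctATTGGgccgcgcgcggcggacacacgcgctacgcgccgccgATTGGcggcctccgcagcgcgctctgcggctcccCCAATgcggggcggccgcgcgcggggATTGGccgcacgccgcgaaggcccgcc
TNRC6B, chr22:40044584-40044833, plus strand: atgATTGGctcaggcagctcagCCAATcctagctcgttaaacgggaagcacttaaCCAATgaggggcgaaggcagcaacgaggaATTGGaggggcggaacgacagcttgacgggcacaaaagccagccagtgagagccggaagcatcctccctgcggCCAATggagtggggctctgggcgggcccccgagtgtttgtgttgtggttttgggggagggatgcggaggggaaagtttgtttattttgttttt
XPO5, chr6:43576039-43576288, minus strand: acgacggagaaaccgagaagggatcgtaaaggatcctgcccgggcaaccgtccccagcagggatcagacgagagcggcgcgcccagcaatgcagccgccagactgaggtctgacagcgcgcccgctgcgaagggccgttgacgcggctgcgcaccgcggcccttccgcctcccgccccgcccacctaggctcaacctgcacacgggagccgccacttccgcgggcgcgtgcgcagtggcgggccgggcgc
The DROSHA and DGCR8 windows hold 3 and 4 copies and have a GC content of 62.0% and 80.0%. TNRC6B holds 5 copies at 56.4% GC, and XPO5 none at 72.4%. Whether the copies bear on the levels was not tested. Whether the counted 5′ ends begin at these starts is not known from a table of counts per gene.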

How the data were processed

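In 3 HEK293 libraries, fragments from RNA 5′ ends were counted per gene. The authors deposited raw counts per gene with no normalization, as whole numbers with differing totals. The tools named in the submitters' processing notes are STAR 2.4.0a and cutadapt 1.2.1, and the build is hg19 (GRCh37). Not given in the sources used here: the counting tool, annotation, use of strand and collapsing of molecular identifiers. A count may thus be a read or a molecule. Total counts were 1532672, 1384172 and 1601555, with 3.49% to 3.85% in spikes.

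Log2 ratios of every gene with at least 10 pooled counts to each member (pseudocount 0.5) were tested against 0 over the libraries by limma (moderated, with an intensity trend), Benjamini-Hochberg adjusted over all 11423 genes of each fit. A pair was called if both fits passed 0.05, and the larger adjusted p is given. The size of small adjusted p-values depended on the trend: without it, XPO5 against DROSHA went from 6.7e-17 to 0.00027 and PRKRA against DICER1 from 5.5e-13 to 0.0011. All genes of a fit share the counts of its reference. Libraries were compared pairwise by a 2-sided exact binomial test on endogenous totals. Pooled ratios have exact (Clopper-Pearson) 95% intervals that cover counting error only. Both tests were also run on simulated counts. For the ratio test the reference was DICER1 (205 pooled counts), the genes were set at 1, 1.5 or 2 times its level, and the dispersion was 0.01. It called 7.5% of genes with a true ratio of 1, 90.1% at 1.5 and 100% at 2. These shares do not carry over to members with lower counts, such as DROSHA, DGCR8 and TNRC6C, which were not simulated as reference. The test between libraries recovered 47.5% of 200 genes changed 1.5-fold, with 7 false calls. At 2-fold it recovered 93%, with 20 false calls.

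Named genes were all members, up to 6 of each list by level, whole lists of at most 8 and unlisted genes, with 1 gene under this rule not reported here. Members and lists were chosen with earlier results of these data known. Protein lengths (longest coding sequence) came by name from GENCODE 29, promoters and microRNAs from RefSeq on GRCh38.p14, and no coordinates were taken across builds. No protein sequences were used here. Alternatives are given in the closing section. Software was R 4.3.3, limma 3.58.1, edgeR 4.0.16, DESeq2 1.42.0, Python 3.11.15, scipy 1.17.1 and matplotlib 3.10.9.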

Additional observations from a re-analysis of the deposited data

How the results depend on the processing

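The number of member pairs called ranged from 20 to 30 over all alternatives, against 29: 28 with edgeR's quasi-likelihood test or without a trend, 21 at a minimum of 30 pooled counts, where TNRC6C was no longer tested, and 20 to 22 with 1 library left out. Of the 10 role pairs, 3 lost their call, each when a library was left out: XPO5 over DICER1 (log2 0.34 to 0.59 over the 3 omissions), TNRC6A over TNRC6C (2.92 to 3.99) and TNRC6B over TNRC6C (2.46 to 3.74). No role pair changed direction under any alternative run. The cause was not tested.

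No member was called between libraries under any alternative. The number of all genes called, 64, was 111 with TMM totals, 114 with DESeq2 size factors and 250 with spike totals. It was 42 without library 20, 59 without library 21 and 8 without library 23. Fewer pairs are tested in each omission, and why the number was lowest without library 23 was not tested. Summed dicing CPM was 181 when spikes entered the total, which lowers every level. Counts of 18 for TNRC6C and under 100 for DROSHA and DGCR8 limit the precision. No paired analysis was possible because there is 1 group, so that no samples could be paired across groups, and the columns carry no replicate number.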
